A study of Mus musculus with 18 samples.

Results

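Hepatocytes of young mice 48 h after partial hepatectomy (Young PH) were compared with hepatocytes of young mice killed before any surgery (Young). The comparison used every gene in the 3 libraries labelled YoungPH and the 3 labelled Young, which are 6 of the 18 libraries of the series, and 14554 of its 31053 listed genes had enough counts for a test. Both groups were male wild-type C57BL/6J mice aged 3 months, on standard chow and without virus or transgene, and each library came from 1 mouse. Partial hepatectomy (PH) is the surgical removal of most liver lobes, after which cells of the untouched remnant grow and divide. The remnant or the whole liver was digested with collagenase, and poly-A RNA of the freshly isolated hepatocytes was sequenced. No sham-operated mice entered, so anaesthesia, the wound, food intake after surgery and loss of liver tissue cannot be told apart. The hour of harvest is not given either, so for every gene below a difference in the time of day cannot be told apart from a change after PH. Other groups appear only beside the young response: Old PH and Old, wild-type C57BL/6J mice of 24 months from another colony (3 libraries each), and male Smo-floxed mice on a C57BL/6J background, aged 3 months by the labels, given AAV8-TBG-Cre, which deletes Smoothened in hepatocytes (Smo (-), 2 libraries at each time), or AAV8-TBG-Luc (Smo (+), 1 library at each time).

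An adult hepatocyte rests outside the cell cycle and spends much of its RNA on secreted plasma proteins, on metabolism and on detoxification. After PH these cells leave quiescence, copy their DNA and divide while the same cells must go on feeding the body, clearing bile acids and ammonia and making plasma proteins. The mouse hepatocyte enters S phase in the second day after surgery, and division follows. RNA from bulk preparations cannot tell fewer cells of a type from less RNA per cell, and this holds for every value below.

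Levels are CPM, counts per 1000000 read pairs in genes after TMM normalisation, listed for replicates 1, 2 and 3 in that order, and changes are log2 fold changes of Young PH over Young with their standard errors (SE). A number alone in parentheses after a gene is its log2 fold change. A gene was called where edgeR's quasi-likelihood test gave an adjusted p under 0.05 (Benjamini-Hochberg, over all 14554 genes). The Young PH libraries held 31904790 to 33390355 read pairs in genes and the Young libraries 31729517 to 36646939. Of all genes tested, 2596 were called higher (17.8%) and 2385 lower (16.4%), which is 34.2% in either direction. More than 2-fold changes made up 8.75% higher and 6.53% lower, and the CPM of the 3 libraries of each group did not overlap in 28.0% of genes upward and 27.0% downward. These shares are the background for the gene lists below, whose median changes stand against a median of −0.01 over all genes. Altogether 52 lists of gene programs and 8 lists of cell type markers were described. The 12 hepatocyte markers made up 67778 to 82823 CPM in Young PH and 101870 to 122795 CPM in Young, so both groups carried the labelled cell type. Replicate 1 of Young PH was the highest of the 3 in 33 of 36 acute phase genes.

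The 15 genes with the largest increases under the naming rule were Lcn2, Saa2, Saa1, Ly6d, Uhrf1, Prtn3, Kif18b, Hmmr, Rad51ap1, Iqgap3, Dlgap5, Ttk, Mybl1, Cenpi and Fignl1. Several belong to cell division, such as Kif18b, a mitotic kinesin (7.06), Hmmr, a spindle protein (6.91), Dlgap5, a microtubule-binding protein of the spindle (6.69), Ttk, a spindle checkpoint kinase (6.52), and Cenpi, of the centromere (6.48). Lcn2, which encodes an iron-chelator-binding antibacterial protein of plasma, measured 4164, 1749 and 1366 CPM in Young PH, against 4.16, 3.74 and 3.08 CPM in Young. Every Young PH library was far above every Young library, and the fold change was the largest upward among the genes named (log2 fold change 9.37, SE 0.66, adjusted p = 1.85e-07). The serum amyloid genes Saa2 (8.50) and Saa1 (7.03) followed the same direction, but they are near copies whose reads can be split uncertainly. Uhrf1, which reads hemimethylated DNA and brings the maintenance methyltransferase to new strands, measured 110.4, 90.9 and 81.5 CPM in Young PH, against 0.420, 0.538 and 0.791 CPM in Young (log2 fold change 7.31, SE 0.51, adjusted p = 1.85e-07). Ly6d, a surface antigen gene of the Ly6 family, measured 33.7, 18.1 and 20.2 CPM in Young PH, against 0.0968, 0.127 and 0.113 CPM in Young (log2 fold change 7.68, SE 0.68, adjusted p = 1.7e-06). Prtn3, the gene of a granule protease known from neutrophils, measured 19.2, 13.3 and 8.17 CPM in Young PH, against 0.0646, 0.0633 and 0.141 CPM in Young (log2 fold change 7.14, SE 0.62, adjusted p = 1.33e-06). Neither gene overlapped between groups. Of the 12 neutrophil and monocyte markers, Ltf, Mpo and Retnlg were at 0 in all 6 libraries, and the list summed to 0.962 to 1.43 CPM in Young PH and 1.14 to 1.23 CPM in Young. Of the 3 tested, Elane, neutrophil elastase, rose at 0.357, 0.411 and 0.212 CPM in Young PH, against 0.161, 0.0317 and 0.0847 CPM in Young (log2 fold change 1.78, SE 0.64, adjusted p = 0.0469). Csf3r, the receptor of a granulocyte growth factor, fell at 0.330, 0.411 and 0.449 CPM in Young PH, against 0.775, 0.950 and 1.02 CPM in Young (log2 fold change −1.19, SE 0.39, adjusted p = 0.031). The Csf3r call was lost when any of the 6 libraries was left out, and that of Elane without Young 2, Young 3, Young PH 1, Young PH 2, Old 2, Old PH 1 or Old PH 2, and the part of such cells in the Prtn3 value was not tested.

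The 15 largest decreases under the same rule were of Pitx3, Slc13a2, Elovl3, Hsd3b5, Car3, Sucnr1, Npas2, Ppp1r3g, Scd1, Rfx4, Vmn1r90 and the unnamed gene models Gm12718, Gm31583, Gm36041 and Gm47818. Slc13a2, a sodium-coupled carrier of dicarboxylates, measured 0.110, 0.334 and 0.159 CPM in Young PH, against 11.8, 11.9 and 12.7 CPM in Young (log2 fold change −5.87, SE 0.32, adjusted p = 2.49e-08). Elovl3, which lengthens saturated fatty acids and is a male-biased liver gene of the mouse, measured 2.97, 4.35 and 21.2 CPM in Young PH, against 341, 352 and 316 CPM in Young (log2 fold change −5.14, SE 0.62, adjusted p = 2.91e-05). Both were lower in every Young PH library, by more than an order of magnitude. Hsd3b5, a steroid dehydrogenase of male mouse liver, was lower too (log2 fold change −4.46, SE 0.65, adjusted p = 1.48e-04), as were Car3, a carbonic anhydrase (−3.67), Sucnr1, the receptor for succinate (−3.66), and Npas2, a circadian transcription factor (−4.89). Pitx3 had the most negative fold change among the genes named (−6.57), but its annotated end (chr19:46135685-46148326, minus strand, GRCm38) runs 10 bases into the end of Elovl3 (chr19:46131897-46135694, plus strand), and without a stated strand setting reads past the end of either gene could be counted for the other.

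**Figure D1:**
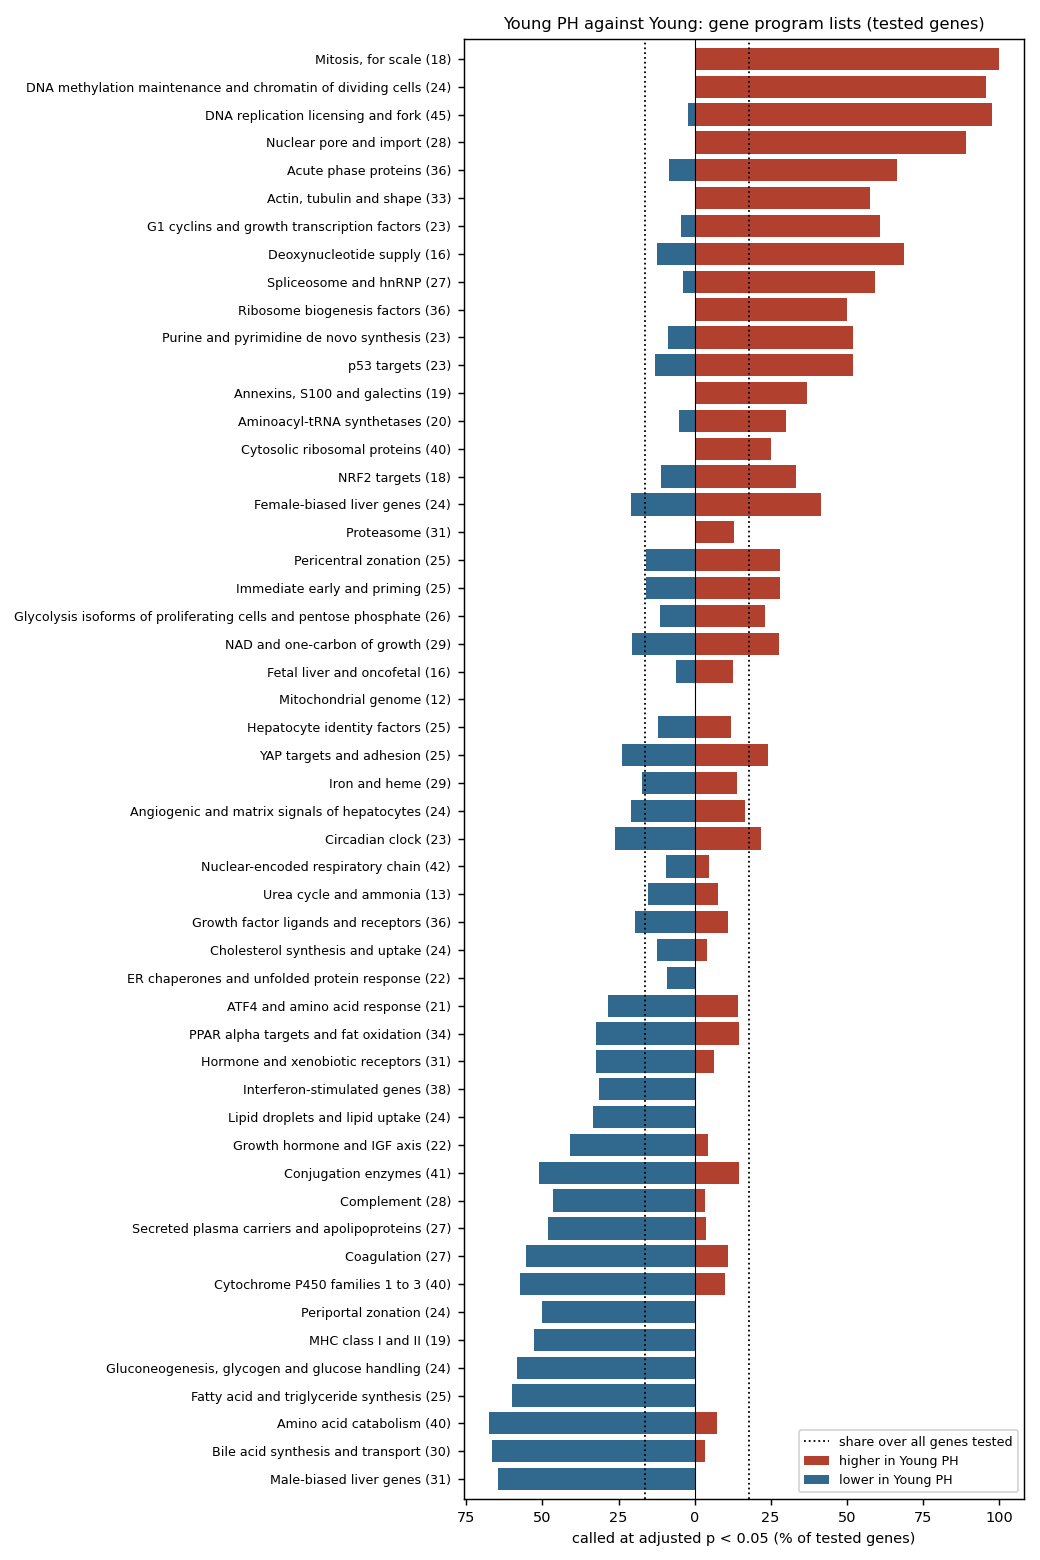
Share of the tested genes of each of the 52 gene program lists that were called higher (bars to the right) or lower (bars to the left) in Young PH than in Young, in percent of tested members, with dotted lines at the background shares over all genes, 17.8% higher and 16.4% lower. Lists of replication, chromatin, mitosis and nuclear pore genes lie to the right, and lists of fatty acid synthesis, amino acid breakdown, bile acids and male-biased genes to the left.

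Nearly all genes of the DNA replication list rose. Of 45 tested genes of origin licensing and the replication fork, 44 rose and 1 fell, at a median log2 change of 2.97. Cdc6, which loads the replicative helicase onto origins, measured 27.4, 22.5 and 21.5 CPM in Young PH, against 0.226, 0.253 and 0.311 CPM in Young (log2 fold change 6.46, SE 0.48, adjusted p = 2.81e-07). Mcm6, a subunit of that helicase, measured 81.1, 87.5 and 82.8 CPM in Young PH, against 2.39, 2.79 and 3.81 CPM in Young (log2 fold change 4.80, SE 0.43, adjusted p = 1.72e-06). Pcna, the sliding clamp of the polymerases, measured 42.5, 50.7 and 46.7 CPM in Young PH, against 7.00, 7.32 and 7.49 CPM in Young (log2 fold change 2.68, SE 0.20, adjusted p = 3.06e-07). No replicate overlapped with the other group in any of these 3 genes, and the 3 Young PH mice lay close to each other. Top2a, which untangles replicated DNA (6.14), Chaf1a, a histone chaperone of the fork (4.50), Lig1, which seals Okazaki fragments (4.44), Mcm2 (4.36), Cdt1 (4.08), Orc1 (3.49) and Fen1 (3.16) rose too. The exception was Mcm10, a factor of helicase activation, which fell (log2 fold change −0.81, SE 0.28, adjusted p = 0.039). That call rested on single libraries, since the adjusted p was 0.189 without Young 1, 0.138 without Young PH 1 and 0.141 without Young PH 2. In old mice Mcm10 was lower too, at 43.7, 26.3 and 26.3 CPM in Old PH, against 99.7, 52.4 and 73.4 CPM in Old. Its level in Old stood far above that of Mcm2 (4.79, 6.02 and 6.94 CPM). Whether all these reads come from Mcm10 was not tested.

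Promoters of the replication list were searched for TTTNNCGC on both strands, the core of the element bound by E2F factors, in the 250 bases before the start of each gene (RefSeq, GRCm38.p6). It was found in 8 of the 36 list genes with a promoter in the table (22.2%), against 4.94% of 27025 gene symbols. The 8 were Cdc6, Gins3, Mcm5, Mcm6, Mcm7, Orc1, Pola1 and Rfc3. A match is a description of these letters and not of binding. Stretches of 3 of these promoters are shown, those of the called genes among the 8 with the largest fold changes. They run 5′ to 3′ on the strand of the gene, with matches in capitals, from Cdc6 (chr11:98907973-98908060, plus strand), Mcm5 (chr8:75109316-75109407, plus strand) and Mcm6 (chr1:128359706-128359855, minus strand), where matches on opposite strands overlap in Mcm5 and Mcm6.
Cdc6: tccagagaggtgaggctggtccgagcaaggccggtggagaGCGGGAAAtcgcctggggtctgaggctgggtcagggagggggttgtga
Mcm5: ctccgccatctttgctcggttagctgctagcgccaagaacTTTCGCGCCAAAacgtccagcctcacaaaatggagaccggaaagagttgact
Mcm6: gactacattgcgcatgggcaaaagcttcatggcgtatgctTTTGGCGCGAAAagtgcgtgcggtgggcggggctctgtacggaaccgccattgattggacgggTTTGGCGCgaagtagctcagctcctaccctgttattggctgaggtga
Of the genes shown, Mcm5 (77.2, 79.0 and 75.7 CPM in Young PH, against 1.81, 1.58 and 2.26 CPM in Young) was chosen after its values were seen.

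Supply of building blocks for DNA rose less evenly. In the deoxynucleotide list 11 of 16 genes rose and 2 fell, at a median of 1.03. Ribonucleotide reductase makes deoxynucleotides from ribonucleotides, and its S phase subunit gene Rrm2 measured 113, 139 and 107 CPM in Young PH, against 2.78, 3.07 and 3.62 CPM in Young (log2 fold change 5.24, SE 0.22, adjusted p = 4.6e-09). Its large subunit gene Rrm1 measured 66.1, 68.4 and 58.3 CPM in Young PH, against 6.13, 5.92 and 6.84 CPM in Young (log2 fold change 3.35, SE 0.17, adjusted p = 1.51e-08). Tyms, thymidylate synthase (2.53), Dck, deoxycytidine kinase (2.45), and Dut, which removes dUTP (1.69), rose with them. The 2 decreases were of Tk2, the mitochondrial thymidine kinase (−0.75), and Slc29a1, a nucleoside transporter (−1.13). Synthesis of purines and pyrimidines from scratch rose in 12 of 23 genes and fell in 2, at a median of 0.41, and none fell without Young 1, Young 3, Young PH 1 or Young PH 3. Ctps, which makes CTP, measured 12.0, 9.87 and 10.4 CPM in Young PH, against 2.36, 1.30 and 2.12 CPM in Young (log2 fold change 2.48, SE 0.22, adjusted p = 1.45e-06), and the mitochondrial folate genes Mthfd2 (2.19) and Mthfd1l (2.75) rose by more than 2 on the log2 scale.

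Nearly all genes that pack and mark new chromatin rose. Of 24 tested genes, 23 rose and none fell at an adjusted p under 0.05, at a median of 2.09. Dnmt1, the methyltransferase that Uhrf1 directs, measured 73.8, 66.3 and 63.0 CPM in Young PH, against 13.9, 15.5 and 13.8 CPM in Young (log2 fold change 2.23, SE 0.18, adjusted p = 6.71e-07). Ezh2, the methyltransferase of histone H3 lysine 27, measured 20.0, 20.4 and 19.1 CPM in Young PH, against 3.20, 4.75 and 3.05 CPM in Young (log2 fold change 2.44, SE 0.18, adjusted p = 3.16e-07). The condensin subunit gene Smc2 measured 45.4, 47.6 and 39.8 CPM in Young PH, against 1.94, 2.31 and 1.98 CPM in Young (log2 fold change 4.41, SE 0.23, adjusted p = 1.62e-08). All 3 were higher in each Young PH library than in each Young library. Hmgb2, a DNA-bending protein (3.35), Smc4 (3.40), Lmnb1 of the nuclear lamina (2.40) and Tmpo, which tethers chromatin to the lamina (1.93), were in the same group. For scale, all 18 genes of the mitosis list rose, at a median of 5.60.

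The switches before S phase included both drivers and brakes of the cycle. Of 23 genes of G1 cyclins, E2F factors and inhibitors, 14 rose and 1 fell, or 2 fell without Old 2, at a median of 0.84. Ccne1, cyclin E1, measured 22.5, 21.4 and 22.3 CPM in Young PH, against 0.420, 0.823 and 0.424 CPM in Young (log2 fold change 5.31, SE 0.40, adjusted p = 2.96e-07). Ccnd1, cyclin D1, measured 189, 206 and 186 CPM in Young PH, against 16.5, 20.2 and 19.8 CPM in Young (log2 fold change 3.36, SE 0.29, adjusted p = 1.46e-06). Among the transcription factors, E2f1, an activator, measured 27.7, 28.0 and 30.5 CPM in Young PH, against 4.07, 3.04 and 4.27 CPM in Young (log2 fold change 2.92, SE 0.26, adjusted p = 1.43e-06). In the same libraries the inhibitors rose: Cdkn1a, p21, measured 66.6, 87.8 and 72.0 CPM in Young PH, against 7.84, 6.21 and 7.60 CPM in Young (log2 fold change 3.39, SE 0.36, adjusted p = 9.88e-06). Cdkn2c, p18, measured 24.3, 27.9 and 15.9 CPM in Young PH, against 1.39, 1.93 and 1.38 CPM in Young (log2 fold change 3.85, SE 0.28, adjusted p = 2.18e-07). E2f7, a repressor of E2F targets, also rose (3.51). Tob1, an antiproliferative regulator of mRNA decay, was the member that fell (log2 fold change −0.86, SE 0.17, adjusted p = 0.00118). Myc, a driver of growth, was not called (log2 fold change 0.71, SE 0.48, adjusted p = 0.286).

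**Figure D2:**
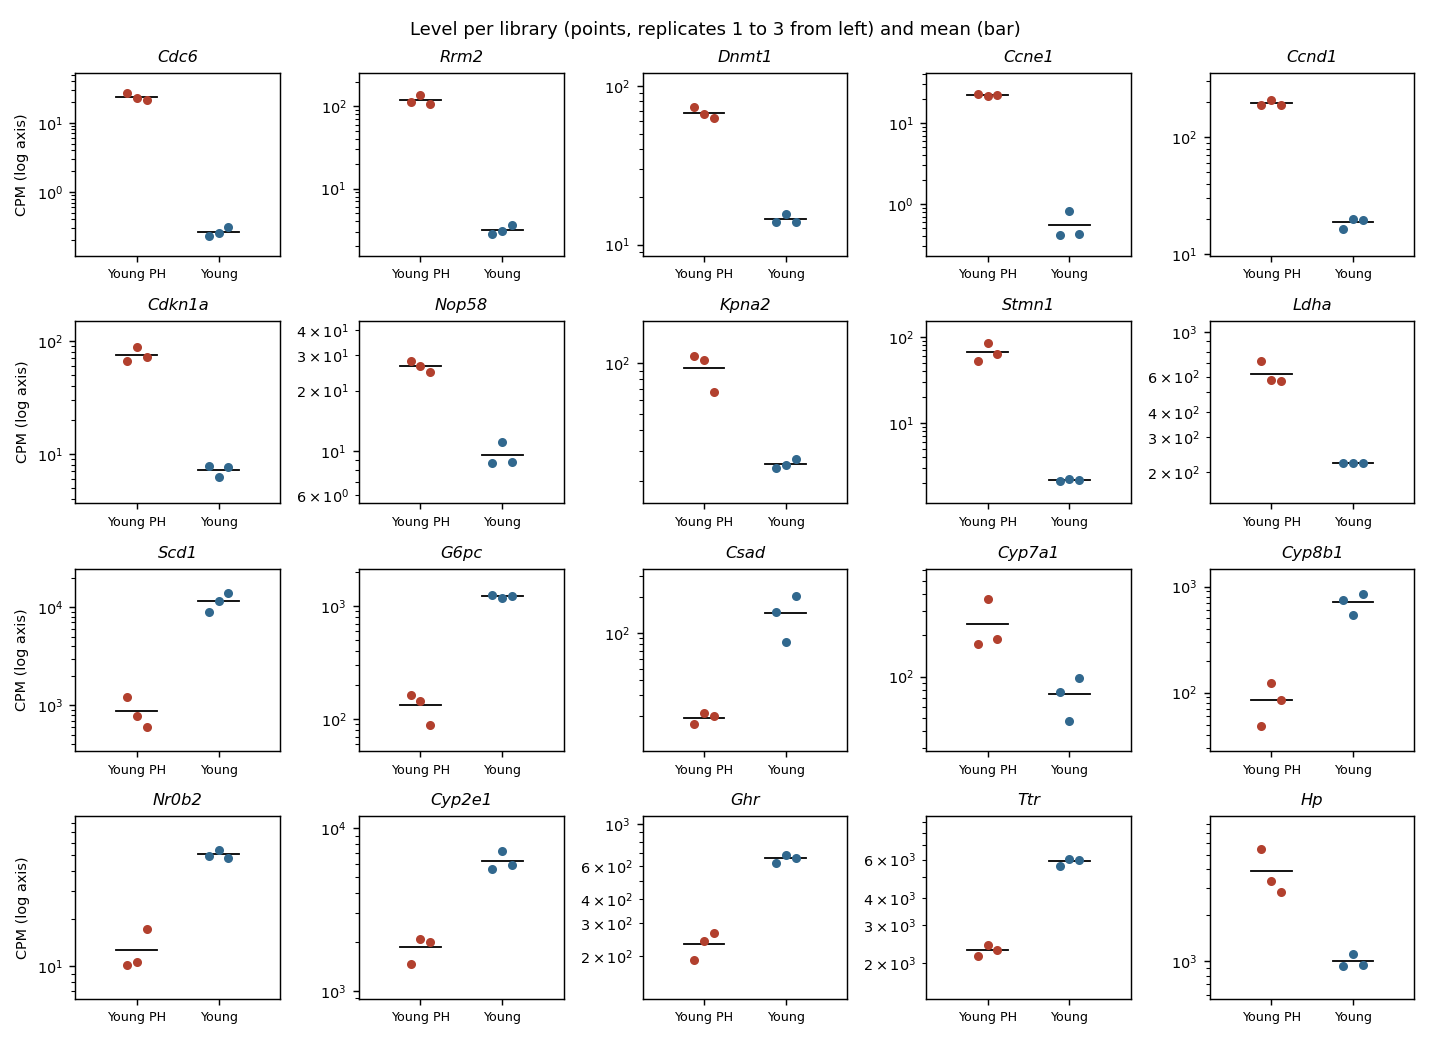
CPM per library (log axis) of 20 genes, 1 panel per gene, with Young PH on the left and Young on the right, points for the 3 libraries of each group and a bar at the mean. The groups do not overlap in any panel, which is largely fixed because the genes were picked from those called. Over all genes tested, 28.0% did not overlap upward and 27.0% downward. Cyp7a1 lies above Young in a bile acid program whose other members shown fell.

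Growth of the protein-making machinery was smaller in size than the replication response. Among 36 ribosome biogenesis factors 18 rose and none fell at an adjusted p under 0.05, at a median of 0.38. Nop58, a core protein of the particles that methylate ribosomal RNA, measured 28.1, 26.5 and 24.9 CPM in Young PH, against 8.68, 11.1 and 8.84 CPM in Young (log2 fold change 1.47, SE 0.13, adjusted p = 2.13e-06). Nop56, its partner (1.08), Nolc1 (0.85), Ncl, nucleolin (0.69), and Npm1, nucleophosmin (0.69), rose, and Fbl, fibrillarin, was not called (log2 fold change 0.26, adjusted p = 0.196). Of 40 cytosolic ribosomal protein genes 10 rose and none fell, although the median was 0.52. Rps19 measured 60.5, 64.9 and 52.4 CPM in Young PH, against 35.6, 31.4 and 32.4 CPM in Young (log2 fold change 0.84, SE 0.21, adjusted p = 0.0066). This count depended on the libraries: it was 4 without Young 2 or without Young PH 1, 5 without Young 3 or without Young PH 2, and 31 when the 6 young libraries were fitted alone. Of 20 aminoacyl-tRNA synthetase genes 6 rose and 1 fell, led by Vars, valyl-tRNA synthetase (1.26), against Tars, threonyl-tRNA synthetase (−0.90), and 3 rose without Young 2.

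Most genes of nuclear traffic and of splicing rose. Of 28 genes of the nuclear pore and import, 25 rose and none fell, at a median of 1.12. Kpna2, an importin alpha, measured 109.7, 105 and 67.5 CPM in Young PH, against 23.9, 24.8 and 27.0 CPM in Young (log2 fold change 1.90, SE 0.19, adjusted p = 5.63e-06). Rangap1, which activates the Ran GTPase (1.60), Ran itself (1.17), and the pore subunits Nup93 (1.59), Nup85 (1.18) and Nup160 (1.14) rose. Of 27 spliceosome and hnRNP genes 16 rose and 1 fell, at a median of 0.42. Lsm3, a subunit of the ring on U6 RNA, measured 8.22, 9.21 and 6.53 CPM in Young PH, against 1.42, 2.09 and 2.03 CPM in Young (log2 fold change 2.11, SE 0.23, adjusted p = 1.02e-05), and Hnrnpa1 rose by 1.11 on the log2 scale. Srsf5, a splicing regulator, was the member that fell, measuring 55.7, 61.7 and 54.1 CPM in Young PH, against 100.3, 139 and 97.9 CPM in Young (log2 fold change −0.98, SE 0.14, adjusted p = 1.51e-04).

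In the main fit, counts for protein folding, protein breakdown and respiration were below the background shares. None of 22 ER chaperone and unfolded protein response genes rose at an adjusted p under 0.05 and 2 fell, namely Sel1l (−0.89) and Herpud1 (−1.15), both of the pathway that removes misfolded ER proteins. Of 31 proteasome genes 4 rose, a count of 1 to 9 when any of the 12 libraries other than Old 2 was left out (1 without Young 2 or Young PH 1, 9 without Old 1) and of 12 when the 6 young libraries were fitted alone. Over all genes, 3339 of 14166 rose in that fit of 6 and 2863 of 15309 without Old 1. The proteasome shares in those 2 settings were above the background. Of 42 nuclear genes of the respiratory chain 2 rose, or 1 without Young 2, Young PH 1 or Young PH 2, and 4 fell, or 1 without Young 1, Young 3 or Young PH 3 and 2 without Young PH 2. Of 12 protein-coding genes of the mitochondrial genome none was called by edgeR (1 at an unadjusted p under 0.05), against 2 by DESeq2 and 1 by limma-voom. Cycs, cytochrome c, was the respiratory gene with the clearest increase, measuring 31.0, 39.1 and 27.4 CPM in Young PH, against 17.6, 13.7 and 17.0 CPM in Young (log2 fold change 1.01, SE 0.17, adjusted p = 4.02e-04). The ATF4 list of amino acid shortage had 3 of 21 genes higher (14.3%) and 6 lower (28.6%), against 17.8% and 16.4% of all genes. Without Young 2 or without Young PH 3, 3 were lower. Asns, asparagine synthetase, measured 26.8, 11.2 and 8.57 CPM in Young PH, against 3.94, 3.01 and 1.19 CPM in Young (log2 fold change 2.52, SE 0.55, adjusted p = 0.00275), while Chac1, which breaks down glutathione, measured 0.935, 0.720 and 1.64 CPM in Young PH, against 8.91, 5.04 and 4.80 CPM in Young (log2 fold change −2.50, SE 0.61, adjusted p = 0.00599). Psat1 of serine synthesis rose (2.62), and Slc38a2, an amino acid carrier, fell (−0.80).

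The cytoskeleton list rose in 19 of 33 genes, at a median of 0.92, and edgeR called none lower (1 at an unadjusted p under 0.05), against 1 by DESeq2 and 1 by edgeR without Young 2. Stmn1, stathmin, which destabilises microtubules, measured 52.1, 85.4 and 64.0 CPM in Young PH, against 2.10, 2.25 and 2.20 CPM in Young (log2 fold change 4.94, SE 0.22, adjusted p = 4.88e-09). Anln, a scaffold of the cleavage furrow (5.82), the tubulin genes Tubb6 (3.45) and Tubb5 (2.24), Tpm1, a tropomyosin (1.63), and the hepatocyte keratins Krt8 (1.51) and Krt18 (1.63) rose, with tubulins open to split reads among near copies. Actb, the actin gene often used for scaling, was not called (log2 fold change 0.31, adjusted p = 0.247). Of 19 annexin, S100 and galectin genes 7 rose, and edgeR called none lower (2 at an unadjusted p under 0.05), against 2 by DESeq2, 0 by limma-voom and 3 by edgeR without Young 2. S100a11, a calcium-binding protein, measured 9.95, 6.87 and 8.20 CPM in Young PH, against 0.484, 0.697 and 1.05 CPM in Young (log2 fold change 3.47, SE 0.33, adjusted p = 3.48e-06). Anxa2 measured 8.06, 4.55 and 6.61 CPM in Young PH, against 1.26, 1.58 and 1.38 CPM in Young (log2 fold change 2.18, SE 0.41, adjusted p = 9.73e-04).

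Secreted proteins split by class. Of 36 acute phase genes, which the liver turns on after injury or inflammation under interleukin 6, 24 rose and 3 fell, at a median of 1.47, and 1 fell without Young 2, Young PH 2 or Young PH 3. Serpina3n, a protease inhibitor, measured 4827, 2435 and 1834 CPM in Young PH, against 480.4, 489.8 and 499 CPM in Young (log2 fold change 2.63, SE 0.35, adjusted p = 7.49e-05). Hp, haptoglobin, measured 5471, 3372 and 2828 CPM in Young PH, against 923, 1117 and 941 CPM in Young (log2 fold change 1.97, SE 0.31, adjusted p = 2.53e-04). Hpx, hemopexin, measured 10772, 6585 and 5756 CPM in Young PH, against 1937, 2473 and 2148 CPM in Young (log2 fold change 1.82, SE 0.27, adjusted p = 1.82e-04). Each gene was higher in all Young PH libraries, with replicate 1 the highest. The metallothionein Mt1, which binds zinc, ranged more widely, at 1322, 692 and 273 CPM in Young PH, against 24.2, 19 and 27.3 CPM in Young (log2 fold change 5.02, SE 0.75, adjusted p = 1.79e-04). Orm2, an alpha-1-acid glycoprotein with near copies, measured 949, 637 and 635 CPM in Young PH, against 14.9, 14.1 and 19.3 CPM in Young (log2 fold change 5.52, SE 0.41, adjusted p = 2.72e-07), and Socs3, the feedback inhibitor of interleukin 6 signalling, rose (1.92). Summed over the list, the level was 89105, 53221 and 47381 CPM in Young PH and 30494, 33078 and 29073 CPM in Young. Hamp, hepcidin, an interleukin 6 target of iron control, was not called (231 to 422 CPM in Young PH, against 314 to 369.6 CPM in Young), and Il4ra, a receptor subunit, fell (−0.89). Between 21 and 26 members rose when any single library was left out.

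The letters TTCNNNGAA, the core of a STAT element, were searched in the same way on both strands. They were found in 8 of the 29 acute phase genes with a promoter in the table (27.6%), against 8.13% of all symbols, namely Apcs, Fga, Fgb, Hamp, Itih4, Serpina3g, Socs3 and Steap4. Socs3 (chr11:117969472-117969560, minus strand) and Steap4 (chr5:7960316-7960404, plus strand), a metalloreductase gene, are printed as examples, with the match in capitals.
Socs3: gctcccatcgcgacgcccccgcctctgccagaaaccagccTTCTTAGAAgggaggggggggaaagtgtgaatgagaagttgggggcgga
Steap4: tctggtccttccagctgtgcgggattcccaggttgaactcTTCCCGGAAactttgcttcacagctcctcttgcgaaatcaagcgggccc
Steap4 (443, 271 and 340.1 CPM in Young PH, against 80.9, 104 and 80.9 CPM in Young) was chosen after its values were seen. Hamp held the letters without a call, and the window of Lcn2 did not hold them.

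Other plasma protein genes that passed the test mostly fell. Of 27 carrier and apolipoprotein genes, 1 rose and 13 fell, at a median of −0.46. Ttr, transthyretin, the carrier of thyroxine and retinol, measured 2159.9, 2411 and 2287 CPM in Young PH, against 5629, 6035 and 6004 CPM in Young (log2 fold change −1.37, SE 0.26, adjusted p = 0.00103). Apoe (−1.42), Apoa2 (−1.44), Apoh (−1.41) and Serpina6, the corticosteroid carrier (−1.44), fell with it. The one gene that rose was Apoa4, an apolipoprotein of triglyceride-rich particles, which measured 547, 596 and 181 CPM in Young PH, against 21.7, 25.8 and 23.8 CPM in Young (log2 fold change 4.22, SE 0.54, adjusted p = 4.6e-05). Alb, albumin, measured 36751, 29706 and 30748 CPM in Young PH, against 52266, 71631 and 58752 CPM in Young (log2 fold change −0.91, SE 0.28, adjusted p = 0.022), a call that was lost without Young 2 (adjusted p = 0.0884), Young 3 (0.0567), Young PH 2 (0.0892) or Young PH 3 (0.0701).

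Coagulation and complement genes that passed the test mostly fell. Of 27 coagulation genes, 3 rose and 15 fell, at a median of −0.54. F2, prothrombin, fell (log2 fold change −0.94, SE 0.16, adjusted p = 5.66e-04), as did F7 (−1.05), F11 (−1.06), Proc, protein C (−1.29), and Klkb1, plasma kallikrein (−1.94). Of 28 complement genes, 1 rose and 13 fell, at a median of −0.41. C2, the protease of the classical pathway convertase (−1.41), C8g (−1.36) and C1ra (−0.96) fell, C4bp, an inhibitor, rose (0.80), and C3, the central component, was not called (log2 fold change 0.58, adjusted p = 0.101).

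**Figure D3:**
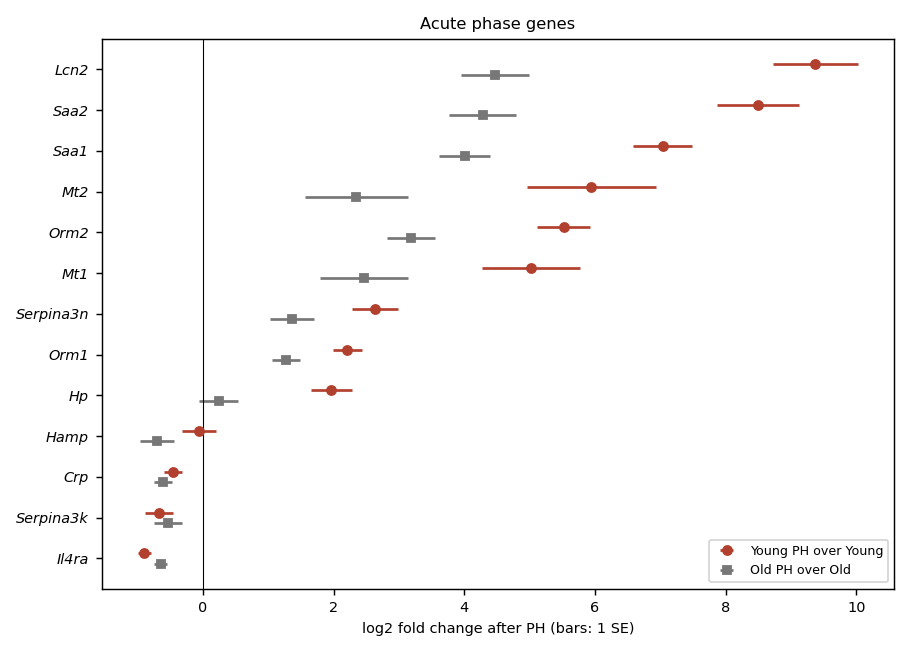
Log2 fold changes after PH of the 13 acute phase genes that the naming rule gave, with Young PH over Young as circles and Old PH over Old as squares, and bars of 1 SE. In 11 of the 13 genes the young value lies to the right of the old one, the exceptions being Serpina3k and Il4ra. The rule favours genes with a clear change in young mice, so this count is partly fixed by the choice of genes. Fold changes leave out the level before surgery. In Old, Hp measured 9043, 6642 and 4603 CPM and Hpx 11879, 9114 and 8841 CPM, above every Young library. Serpina3n overlapped with Young, at 681, 485 and 469 CPM in Old. Over the whole list a difference between the responses was called in 5 of 36 genes, against 3.26% of all genes.

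Genes of fatty acid synthesis that passed the test all fell. Of 25 genes of fatty acid and triglyceride synthesis none rose at an adjusted p under 0.05 and 15 fell, at a median of −0.93. Scd1, the desaturase that makes oleate, measured 1229, 784 and 599 CPM in Young PH, against 8939, 11557 and 14118 CPM in Young (log2 fold change −3.73, SE 0.69, adjusted p = 9.27e-04). Mlxipl, the carbohydrate-sensing factor ChREBP, measured 226, 377 and 355 CPM in Young PH, against 929, 1030.3 and 902 CPM in Young (log2 fold change −1.58, SE 0.22, adjusted p = 8.73e-05). Srebf1, the factor SREBP-1, measured 289, 244 and 239.8 CPM in Young PH, against 510.4, 428 and 545 CPM in Young (log2 fold change −0.94, SE 0.21, adjusted p = 0.00359). All 3 were lower in each Young PH library. Dgat2, the last step to triglyceride (−1.08), Lpin1, a phosphatidate phosphatase (−1.37), Insig2 (−1.49) and Me1, malic enzyme (−0.93), fell. Fasn, fatty acid synthase, was not called (log2 fold change −0.97, SE 0.45, adjusted p = 0.116).

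Among 34 targets of PPAR alpha, the fasting-activated regulator of fat oxidation, 5 rose (14.7%) and 11 fell (32.4%), at a median of −0.30. Over all genes 17.8% rose and 16.4% fell. The peroxisomal thiolase gene Acaa1b (−2.83) fell. Ucp2, a mitochondrial carrier, measured 59.9, 74.5 and 73.1 CPM in Young PH, against 12.3, 14.3 and 20.1 CPM in Young (log2 fold change 2.15, SE 0.20, adjusted p = 2.47e-06), and Pdk4, which restrains pyruvate oxidation, rose (1.16). In the list of lipid droplets and uptake 8 of 24 fell and none rose, or 5 fell without Young PH 1. Ces1d, a lipid hydrolase, measured 56.4, 151 and 89.3 CPM in Young PH, against 459, 664 and 567 CPM in Young (log2 fold change −2.51, SE 0.37, adjusted p = 1.43e-04). The cholesterol list was close to level, with 1 of 24 higher and 3 lower, or 5 lower without Young PH 1, Old 1, Old PH 2 or Old PH 3. Tm7sf2, a sterol reductase (−1.68), was among those that fell.

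Genes of glucose storage and release that passed the test all fell. Of 24 genes, none rose at an adjusted p under 0.05 and 14 fell, at a median of −1.01. G6pc, which frees glucose into blood, measured 165, 144 and 89.7 CPM in Young PH, against 1250.0, 1168 and 1223 CPM in Young (log2 fold change −3.19, SE 0.38, adjusted p = 2.68e-05). Pklr, the liver pyruvate kinase, measured 24.8, 28.7 and 36.3 CPM in Young PH, against 130.1, 104 and 119 CPM in Young (log2 fold change −1.97, SE 0.19, adjusted p = 4.32e-06). Khk, fructokinase, measured 78.7, 83.1 and 81.7 CPM in Young PH, against 207, 207 and 228 CPM in Young (log2 fold change −1.40, SE 0.11, adjusted p = 7.18e-07). The groups stayed apart in all 3 genes, and the glycogen-targeting subunit genes Ppp1r3g (−3.49) and Ppp1r3c (−1.82), the glucokinase regulator Gckr (−1.70) and the transporter Slc37a4 (−1.23) fell as well. Pck1, the other gluconeogenic control enzyme, was not called (log2 fold change −0.23, adjusted p = 0.752). Among 26 genes of the glycolytic isoforms of dividing cells and the pentose phosphate path, 6 rose (23.1%) and 3 fell (11.5%). These shares were near the 17.8% and 16.4% of all genes, and 3 rose without Young 2, Young PH 1 or Young PH 2. Ldha, lactate dehydrogenase A, measured 717, 576 and 572 CPM in Young PH, against 222, 223 and 223 CPM in Young (log2 fold change 1.48, SE 0.16, adjusted p = 1.2e-05), whereas Pkm (0.44), Hk2 (0.19) and G6pdx (−0.56) were not called.

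Breakdown of amino acids fell in 27 of 40 genes and rose in 3, at a median of −0.64. Csad, which decarboxylates cysteine sulfinate on the way to taurine, measured 17.1, 20.9 and 19.8 CPM in Young PH, against 149, 82.9 and 205 CPM in Young (log2 fold change −2.91, SE 0.37, adjusted p = 4.7e-05). Tdo2, the first step of tryptophan breakdown, measured 189, 188 and 238 CPM in Young PH, against 730.1, 646 and 703 CPM in Young (log2 fold change −1.76, SE 0.18, adjusted p = 5.64e-06). Both fell below every Young library, as did Hal, histidase (−1.49), Prodh, proline dehydrogenase (−1.42), and Ftcd of histidine breakdown (−1.36). Acmsd, which diverts tryptophan from NAD synthesis (1.70), and Oat, ornithine aminotransferase (1.12), rose. The urea cycle list stayed near level with 1 of 13 higher, or 2 without Old 3, and 2 lower. Otc, ornithine transcarbamylase, measured 91.9, 98.7 and 98.8 CPM in Young PH, against 227, 177 and 225 CPM in Young (log2 fold change −1.12, SE 0.15, adjusted p = 7.84e-05), Nags, whose product activates the cycle, rose (0.77), and Cps1 (4170.0 to 7664 CPM in Young PH, against 6179 to 6357 CPM in Young) was not called.

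Bile acid genes fell in 20 of 30 cases and rose in 1, at a median of −0.75. The exception was the entry point: Cyp7a1, the rate-limiting hydroxylase of bile acid synthesis, measured 173, 369 and 186 CPM in Young PH, against 77.6, 47.6 and 98.2 CPM in Young (log2 fold change 1.70, SE 0.37, adjusted p = 0.00294). Cyp8b1, the hydroxylase that leads to cholic acid, measured 48.6, 123 and 84.3 CPM in Young PH, against 748, 541 and 853 CPM in Young (log2 fold change −3.07, SE 0.57, adjusted p = 9.00e-04). Nr0b2, SHP, the repressor that bile acids induce, measured 10.2, 10.7 and 17.3 CPM in Young PH, against 49.4, 54.1 and 48.4 CPM in Young (log2 fold change −1.99, SE 0.33, adjusted p = 3.86e-04). Cyp7a1 lay above all Young libraries while the other two lay below them. The uptake carriers Slc10a1, NTCP (−1.31), and Slco1b2 (−1.17), the export pump Abcb11 (−1.09), the basolateral exporter Abcc3 (−1.79) and the sterol exporter Abcg8 (−1.91) fell, together with Cyp27a1 (−1.51) and the conjugating ligase Slc27a5 (−1.64).

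Genes of drug metabolism fell more often than they rose. Of 40 genes of cytochrome P450 families 1 to 3 and their reductase, 23 fell and 4 rose, at a median of −0.92. Cyp2e1, which oxidises ethanol and paracetamol, measured 1455, 2097 and 2008 CPM in Young PH, against 5647, 7280.3 and 5944 CPM in Young (log2 fold change −1.76, SE 0.33, adjusted p = 8.86e-04). Cyp2f2, a periportal gene of the mouse, measured 523, 460.0 and 579 CPM in Young PH, against 2038, 1539.6 and 2059 CPM in Young (log2 fold change −1.85, SE 0.21, adjusted p = 1.91e-05). The reductase Por, which feeds these enzymes electrons, rose (log2 fold change 1.24, SE 0.31, adjusted p = 0.00667). Cyp1a1, a target of the aryl hydrocarbon receptor, rose at low levels, measuring 3.08, 1.16 and 12.7 CPM in Young PH, against 0.387, 0.633 and 0.452 CPM in Young (log2 fold change 3.52, SE 0.84, adjusted p = 0.00521), with limma-voom's adjusted p at 0.0560. Neighbouring Cyp2c and Cyp2d genes share sequence, and their single values are uncertain for that reason. Cyp1a2 (445 to 1774 CPM in Young PH, against 1013 to 1175 CPM in Young) and Cyp3a11 (4339.7 to 5116 CPM in Young PH, against 4995 to 6188 CPM in Young) were not called.

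Of 41 conjugation genes, 6 rose and 21 fell, at a median of −0.65. Sult2a8, a sulfotransferase of bile acids in the mouse, measured 20.8, 68.6 and 70.5 CPM in Young PH, against 365, 400.4 and 393 CPM in Young (log2 fold change −2.86, SE 0.37, adjusted p = 5.33e-05). Sult1a1, a phenol sulfotransferase, measured 639.9, 537 and 328 CPM in Young PH, against 91.1, 77.2 and 95.9 CPM in Young (log2 fold change 2.51, SE 0.23, adjusted p = 2.03e-06). Nnmt, which methylates nicotinamide, rose (1.87), as did Gstm3 (1.88) of a family with near copies, while Ugt2b1 (−1.78) and Ugt2a3 (−1.36) fell. Targets of NRF2, the sensor of oxidants, rose in 6 of 18 cases (33.3%, against 17.8% of all genes). Another 2 fell (11.1%, against 16.4%), or 1 without Young 2, Young 3, Young PH 1 or Young PH 2. Srxn1, sulfiredoxin (1.02), Hmox1, heme oxygenase (1.14), and Txnrd1, thioredoxin reductase (0.86), rose, and Gclc, of glutathione synthesis, fell (−0.74).

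Male-biased liver genes that passed the test all fell. Of 31 male-biased liver genes none rose at an adjusted p under 0.05 and 20 fell, at a median of −1.35, or 13 without Young PH 2. Beside Elovl3 and Hsd3b5, Cyp4a12a, an omega-hydroxylase, measured 56.5, 50.7 and 123 CPM in Young PH, against 504, 311 and 630.0 CPM in Young (log2 fold change −2.65, SE 0.39, adjusted p = 1.50e-04), Slco1a1, an organic anion carrier, fell (−2.02), and so did Mup3 (−1.77) of the major urinary protein cluster, whose copies are hard to tell apart. Of 24 female-biased genes, 10 rose and 5 fell, at a median of 0.53, or 6 rose without Young 1, Young 2 or Young PH 2, and 3 fell without Young 2, Young PH 1 or Young PH 2. The list did not move as a whole, since it summed to 858 to 941 CPM in Young PH and 843 to 1803 CPM in Young. Its median was −0.46 in old mice (5 higher, 3 lower). In Smo (-) mice 9 of 21 genes had the same sign as in young mice. Trim24, a transcription cofactor, measured 86.1, 138 and 96.9 CPM in Young PH, against 21.7, 20.5 and 24.7 CPM in Young (log2 fold change 2.26, SE 0.27, adjusted p = 2.52e-05). Sult1e1, estrogen sulfotransferase, measured 2.61, 0.129 and 0.291 CPM in Young PH, against 0, 0 and 0 CPM in Young. Since every Young library was at 0, its mean was at least 11-fold higher in Young PH, taking 3 counts in a library (0.0922 CPM) as the floor, and most of that came from replicate 1. Hamp2, a second hepcidin gene of the mouse, was among those that fell, with few counts in either group (0.0275, 0.0257 and 0 CPM in Young PH, against 0.807, 0.697 and 0.678 CPM in Young).

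The growth hormone axis, which sets the sex pattern of mouse liver, fell in 9 of 22 genes and rose in 1, at a median of −0.56. Ghr, the growth hormone receptor, measured 191, 241 and 266 CPM in Young PH, against 623, 685 and 660.3 CPM in Young (log2 fold change −1.50, SE 0.14, adjusted p = 3.5e-06). Stat5b, its transcription factor, measured 42.4, 45.5 and 44.3 CPM in Young PH, against 96.0, 83.2 and 97.3 CPM in Young (log2 fold change −1.06, SE 0.11, adjusted p = 8.33e-06). Igfals, the subunit that keeps IGF-1 in plasma, measured 51.7, 74.2 and 68.9 CPM in Young PH, against 180.0, 177 and 172 CPM in Young (log2 fold change −1.44, SE 0.22, adjusted p = 2.17e-04). Each was lower in every Young PH library, Igfbp1 (−2.18) and Igfbp3 (−2.79) fell too, and Igf1 was not called (log2 fold change −0.41, adjusted p = 0.122). The one gene that rose was Socs3, which also stands in the acute phase list.

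Zonation is the division of labour between portal and central hepatocytes. Of 24 periportal genes none rose at an adjusted p under 0.05 and 12 fell, at a median of −0.42, or 7 without Young 3. Pigr, which carries IgA into bile, measured 374, 345 and 510.0 CPM in Young PH, against 1377, 1452 and 1542 CPM in Young (log2 fold change −1.83, SE 0.20, adjusted p = 1.07e-05), and Gls2, the liver glutaminase, and Sds, serine dehydratase, fell (−0.97 and −1.34). Of 25 pericentral genes 7 rose (28%) and 4 fell (16%), at a median of 0.01, against 17.8% and 16.4% of all genes. Those that fell were Cyp2e1 (−1.76), Cyp27a1 (−1.51), Slco1b2 (−1.17) and Cyp2c29 (−0.95), of which Cyp2c29 lost the call without Young 2, Young 3 or Young PH 1. Their list summed to 5933 to 8880 CPM in Young PH and 11669 to 14673 CPM in Young, and the periportal list to 14658 to 20935 CPM in Young PH and 21624 to 25837 CPM in Young. Sp5, a Wnt target, measured 2.83, 4.45 and 3.89 CPM in Young PH, against 1.48, 1.36 and 1.55 CPM in Young (log2 fold change 1.34, SE 0.31, adjusted p = 0.00416), Slc13a3, a dicarboxylate carrier, rose (1.43), and Glul, glutamine synthetase, was not called (log2 fold change 0.47, adjusted p = 0.0785).

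Of 25 factors of hepatocyte identity, 3 rose and 3 fell (12% each way), against 17.8% and 16.4% of all genes. There were 5 higher without Old PH 3 and 1 lower without Young 1, Young PH 1 or Young PH 2. Hnf4a, the master regulator of hepatocyte genes, measured 823, 821 and 947 CPM in Young PH, against 819.7, 734 and 729 CPM in Young and was not called (log2 fold change 0.18, SE 0.15, adjusted p = 0.388). Cebpa, which restrains growth and drives metabolic genes, measured 189, 267 and 292 CPM in Young PH, against 626, 386 and 504 CPM in Young (log2 fold change −1.02, SE 0.21, adjusted p = 0.00199). Foxa3 rose (0.86), as did Gata6 (1.18). Among 31 hormone and xenobiotic receptors, 2 rose, or 1 without Young PH 2, and 10 fell. Gcgr, the glucagon receptor (−0.97), Thrb, a thyroid hormone receptor (−0.68), Adra1b, an adrenergic receptor (−1.19), and Insr, the insulin receptor (−0.72), fell, while Ahr, the aryl hydrocarbon receptor, rose (0.93). Of 16 fetal liver and oncofetal genes 2 rose, namely Ly6d (7.68) and Acsl4, an acyl-CoA synthetase (0.84), and Aldoc, an aldolase, fell (−1.06). The number that rose was 4 without Young PH 3 or Old 1 and 6 in the fit of the 6 young libraries, and the number that fell was 2 without Old 1 or Old 3. Afp, alpha-fetoprotein (5.45 to 6.13 CPM in Young PH, against 2.90 to 5.04 CPM in Young), H19 (0.0793 to 0.440 CPM in Young PH, against 0 to 0.141 CPM in Young) and Gpc3 (0 to 0.180 CPM in Young PH, against 0 to 0.0968 CPM in Young) were not called, although Afp was called in the fit of 6 (adjusted p = 0.0368).

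Among the clock genes, single members moved in both directions. The liver clock is a loop in which ARNTL and its partners CLOCK or NPAS2 turn on the Per and Cry genes, whose proteins then repress them, and output genes follow with the time of day. Of 23 clock genes 5 rose (21.7%) and 6 fell (26.1%), against 17.8% and 16.4% of all genes. The number that rose was 3 without Young PH 3 and 9 in the fit of the 6 young libraries. Arntl measured 11.7, 6.63 and 3.78 CPM in Young PH, against 34.2, 22.1 and 32.0 CPM in Young (log2 fold change −2.00, SE 0.39, adjusted p = 0.00121). Npas2 measured 0.825, 0.206 and 0.449 CPM in Young PH, against 18.9, 7.51 and 17.7 CPM in Young (log2 fold change −4.89, SE 0.75, adjusted p = 2.11e-04). Both activators were lower in every Young PH mouse. Usp2, a deubiquitinase under clock control, measured 45.7, 74.2 and 69.8 CPM in Young PH, against 4.32, 6.27 and 6.58 CPM in Young (log2 fold change 3.46, SE 0.40, adjusted p = 1.93e-05). Ciart, a repressor of the loop, measured 14.2, 18.9 and 21.6 CPM in Young PH, against 1.10, 1.65 and 2.34 CPM in Young (log2 fold change 3.42, SE 0.47, adjusted p = 8.55e-05). Per3 measured 28.2, 44.6 and 41.3 CPM in Young PH, against 9.75, 10.1 and 11.5 CPM in Young (log2 fold change 1.86, SE 0.31, adjusted p = 3.93e-04). These 3 were higher in every Young PH mouse. Dbp, an output factor of steep daily rhythm, measured 20.4, 55.1 and 63.5 CPM in Young PH, against 13.8, 15.6 and 17.6 CPM in Young and was not called (log2 fold change 1.57, SE 0.71, adjusted p = 0.107).

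The hour of harvest is not given in the sources used here, so a change after PH and a difference in the time of day cannot be told apart. This holds for the bile acid, lipid and other metabolic genes above as well. The E-box CACGTG, the letters that ARNTL complexes read, was found in 5 of the 18 clock genes with a promoter in the table (27.8%), against 6.86% of all symbols, namely Bhlhe41, Ciart, Cry1, Per1 and Tef. Ciart is printed because it holds 3 of them (chr3:95882229-95882384, minus strand).
Ciart: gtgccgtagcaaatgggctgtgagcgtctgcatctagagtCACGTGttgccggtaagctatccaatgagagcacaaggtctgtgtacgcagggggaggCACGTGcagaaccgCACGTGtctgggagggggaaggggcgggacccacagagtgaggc
The matches in capitals describe letters only.

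**Figure D4:**
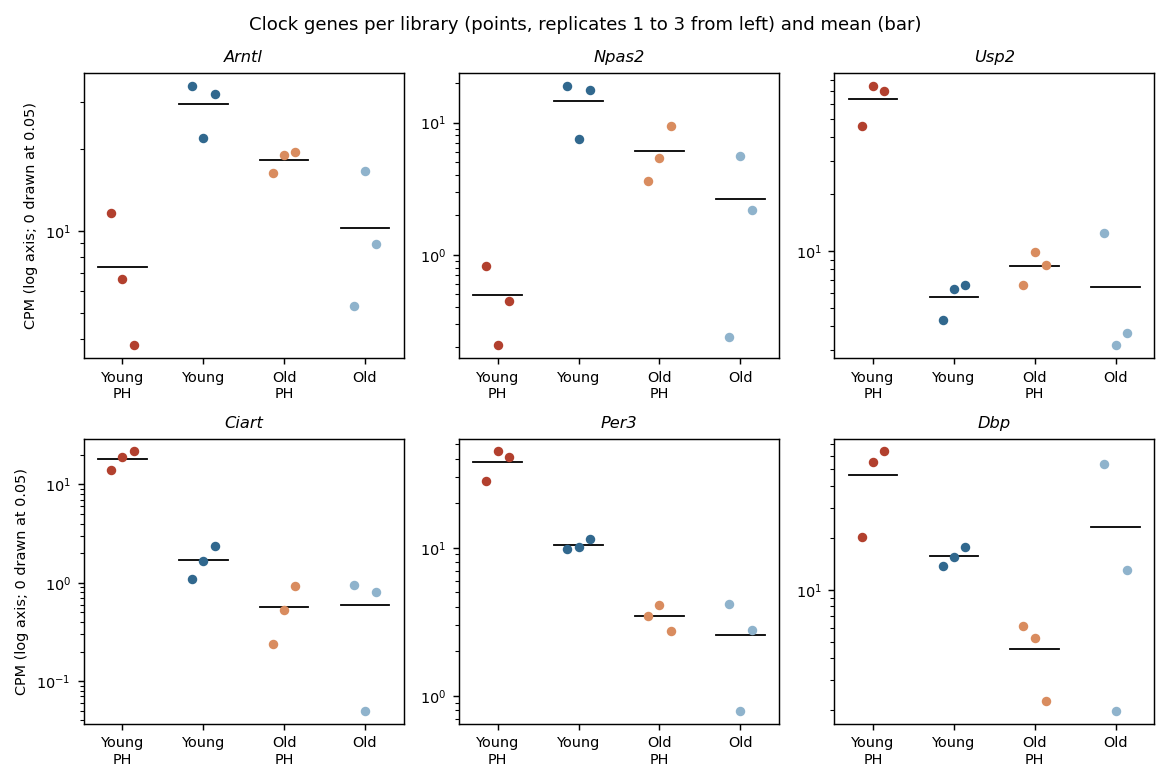
CPM per library (log axis) of Arntl, Npas2, Usp2, Ciart, Per3 and Dbp in Young PH, Young, Old PH and Old, 3 libraries each, with a bar at the mean. Arntl and Npas2 lie lower in each Young PH library than in each Young library, and the Old libraries spread widely, with Old replicate 1 highest in Dbp.

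Targets of p53 rose in 12 of 23 cases and fell in 3, at a median of 0.77, and 1 fell when any of the 6 young libraries other than Young PH 1 was left out. Beside Cdkn1a, Phlda3, an inhibitor of AKT, measured 1.79, 4.45 and 3.07 CPM in Young PH, against 0.0646, 0.222 and 0.0847 CPM in Young (log2 fold change 4.61, SE 0.49, adjusted p = 8.83e-06). Eda2r, a receptor of the TNF receptor family, measured 5.83, 9.23 and 10.8 CPM in Young PH, against 0.161, 0.697 and 0.339 CPM in Young (log2 fold change 4.42, SE 0.46, adjusted p = 6.9e-06). Mdm2, which degrades p53 (1.08), and Ccng1, cyclin G1 (1.16) rose. Gtse1 (4.81) and Psrc1 (6.28) are also genes of mitosis. Bbc3, PUMA, which starts apoptosis, went the other way, at 6.96, 6.97 and 5.10 CPM in Young PH, against 24.4, 10.6 and 23.7 CPM in Young (log2 fold change −1.62, SE 0.30, adjusted p = 0.001).

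Immediate early genes, the first transcripts after a growth signal, were mixed at 48 h, with 7 of 25 higher and 4 lower. These were 28% and 16%, against 17.8% and 16.4% of all genes. Klf6, a zinc finger factor, measured 45.7, 46.3 and 30.4 CPM in Young PH, against 6.68, 5.83 and 9.12 CPM in Young (log2 fold change 2.5, SE 0.38, adjusted p = 1.86e-04). Dusp1, a MAP kinase phosphatase, measured 47.9, 75.2 and 70.0 CPM in Young PH, against 170.2, 176 and 181 CPM in Young (log2 fold change −1.45, SE 0.38, adjusted p = 0.00954). Zfp36, which destabilises inflammatory mRNA, fell (−1.33), and Jun (−0.41), Fos (0.59) and Egr1 (−0.51) were not called. Among 36 growth factor ligands and receptors 4 rose (11.1%) and 7 fell (19.4%). Tnfrsf12a, the receptor Fn14 of the ligand TWEAK, measured 37.9, 23.9 and 25.3 CPM in Young PH, against 3.42, 3.86 and 3.11 CPM in Young (log2 fold change 3.07, SE 0.21, adjusted p = 1.39e-07). Lifr, the receptor of leukemia inhibitory factor, measured 233, 313 and 345 CPM in Young PH, against 1013, 1181 and 729 CPM in Young (log2 fold change −1.71, SE 0.25, adjusted p = 1.58e-04), Erbb3 fell (−1.09), and Egfr, the receptor of EGF, was not called (log2 fold change −0.20, adjusted p = 0.559). Of 25 YAP targets and adhesion genes 6 rose and 6 fell (24% each way). Gjb1, the gap junction protein of hepatocytes (−1.10), and Cldn1, a tight junction protein (−1.23), fell, while Ajuba, an adaptor at junctions (1.37), and Tead1, the DNA-binding partner of YAP (0.79), rose.

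Interferon and antigen presentation genes that passed the test all fell. Of 38 interferon-stimulated genes none rose at an adjusted p under 0.05 and 12 fell, at a median of −0.56; the count was 6 without Young PH 1 and 21 when the 6 young libraries were fitted alone. Rsad2, the antiviral protein viperin, measured 2.14, 3.39 and 2.62 CPM in Young PH, against 8.17, 12.7 and 11.9 CPM in Young (log2 fold change −2.00, SE 0.43, adjusted p = 0.00244). Cxcl9, a chemokine for T cells, measured 1.37, 1.13 and 0.793 CPM in Young PH, against 4.71, 6.71 and 6.38 CPM in Young (log2 fold change −2.43, SE 0.30, adjusted p = 3.05e-05). Of 19 MHC genes 10 fell and none rose at an adjusted p under 0.05, at a median of −0.55. H2-K1, of class I, measured 405, 375 and 396 CPM in Young PH, against 798, 908 and 920.1 CPM in Young (log2 fold change −1.16, SE 0.15, adjusted p = 6.25e-05), and B2m, its light chain, fell (−0.87). Among class II genes, which mark antigen-presenting cells, H2-Aa measured 0.550, 0.566 and 0.370 CPM in Young PH, against 4.03, 4.15 and 5.79 CPM in Young (log2 fold change −3.22, SE 0.43, adjusted p = 6.75e-05). Cd74, their chaperone, measured 2.31, 2.88 and 2.06 CPM in Young PH, against 16.1, 21.2 and 24.5 CPM in Young (log2 fold change −3.09, SE 0.44, adjusted p = 1.27e-04).

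Markers of other liver cells moved in the same libraries. The 15 endothelial markers summed to 219 to 252 CPM in Young PH and 332 to 527 CPM in Young, and 8 of them fell, such as Kdr, a VEGF receptor (−1.11), and Oit3 (−1.55). That count was 5 without Young 2 or Young PH 1 and 14 when the 6 young libraries were fitted alone. Kupffer cell and macrophage markers summed to 114 to 141 CPM in Young PH and 85.7 to 131 CPM in Young. Of 12 tested, the scavenger receptor gene Marco was called, measuring 6.98, 7.71 and 8.01 CPM in Young PH, against 0.710, 0.823 and 1.02 CPM in Young (log2 fold change 3.14, SE 0.68, adjusted p = 0.00286), while Adgre1 (−0.39), Clec4f (−0.16) and Csf1r (−0.35) were not. Lymphocyte markers summed to 4.76 to 6.94 CPM in Young PH and 7.49 to 8.42 CPM in Young, and stellate cell markers to 89.1 to 110 CPM in Young PH and 123 to 198 CPM in Young. Among stellate and fibroblast genes Col1a1, collagen I, measured 4.23, 2.80 and 4.10 CPM in Young PH, against 0.839, 0.792 and 0.706 CPM in Young (log2 fold change 2.25, SE 0.27, adjusted p = 3.15e-05), and Ecm1 fell (−1.53). The part that other cells had in the interferon, MHC, Marco and Col1a1 values was not tested.

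**Figure D5:**
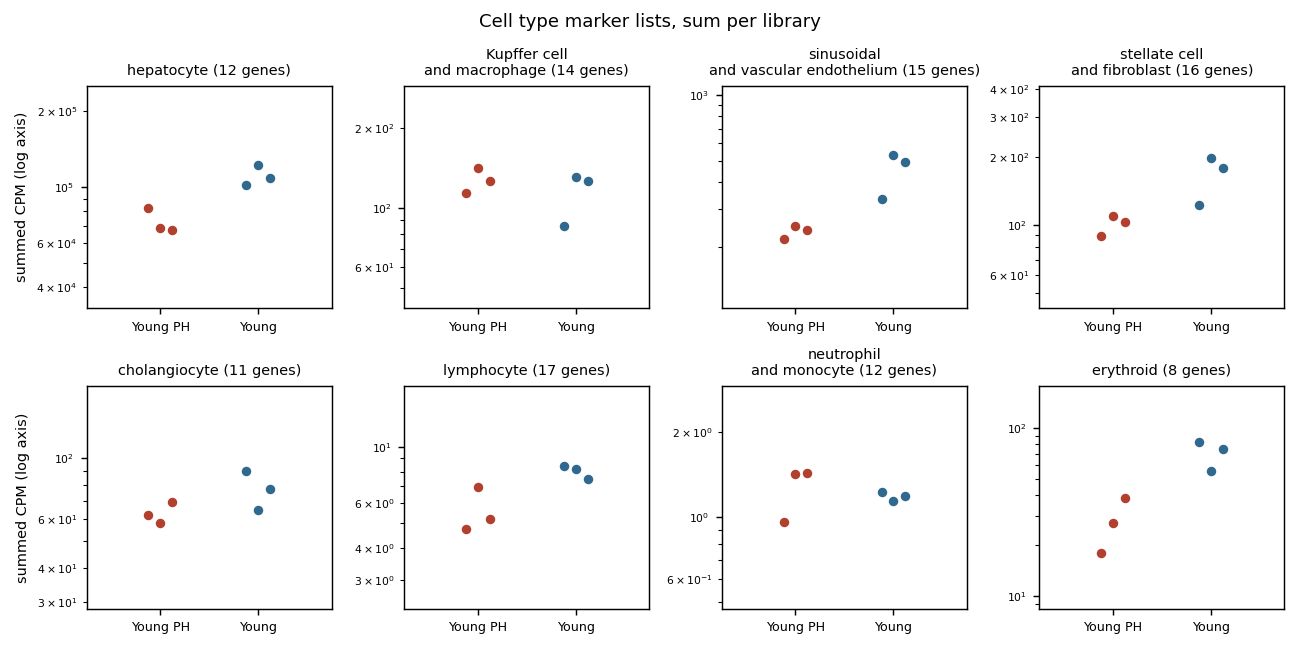
Summed CPM per library (log axis) of the 8 cell type marker lists, with Young PH on the left and Young on the right, 3 libraries each. Hepatocyte, endothelial, stellate cell, lymphocyte and erythroid sums lie lower in Young PH in every library, and the Kupffer cell sums overlap.

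Most of the young response had the same direction in mice that shared no library with it. Of the genes called higher in Young PH, 93.5% were higher in Old PH than in Old, and 86.7% of the 2461 also tested in Smo-floxed mice were higher in Smo (-) PH than in Smo (-). Of the genes called lower, 84.7% were lower in Old PH than in Old and 85.5% of 2270 in Smo (-) PH than in Smo (-). Genes not called had the same sign in 61.9% and 62.1% of cases. With 1 Smo (+) library at each time there is no test, and the shares were 83.9% of genes called higher and 67.5% of genes called lower.

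The young and old responses differed in size at an adjusted p under 0.05 in 474 genes (3.26% of those tested). That count was 60 without Young PH 2 and 825 without Old 1. Of the genes below, those outside the cell cycle lists kept the call of a difference when each library of the 12 was left out in turn, except where a library is named. The young libraries also held more read pairs outside genes (25.2 to 28.9% in Young PH and 26.0 to 33.9% in Young) than the old (3.11 to 3.74% in Old PH and 2.03 to 3.07% in Old), and age, colony and library preparation cannot be told apart.

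Some acute phase and matrix genes had a more positive change in young mice. Lcn2 measured 1542, 986 and 541 CPM in Old PH, against 37.2, 26.4 and 74.9 CPM in Old. It changed by 9.37 in young and 4.47 in old mice on the log2 scale (difference 4.90, SE 0.69, adjusted p = 0.00677). Saa1 changed by 7.03 in young and 4.01 in old mice (difference 3.02, SE 0.50, adjusted p = 0.0143), and Saa2 by 8.50 and 4.28 (difference 4.22, SE 0.67, adjusted p = 0.0126). Fkbp5, a glucocorticoid-induced co-chaperone, measured 45.2, 37.5 and 38.1 CPM in Young PH, against 7.97, 9.85 and 7.74 CPM in Young and changed by 2.24 in young against 0.18 in old mice (difference 2.06, SE 0.26, adjusted p = 0.00332). Before surgery it measured 29.9, 19.3 and 22.9 CPM in Old. Fkbp5 and Lcn2 began higher in every Old library than in any Young library. The part of starting levels in the differences of this paragraph was not tested. Ogn, a matrix proteoglycan, rose by 4.06 in young and changed by −1.71 in old mice (difference 5.77, SE 0.79, adjusted p = 0.00507), and Col1a1 by 2.25 and 0.01 (difference 2.24, SE 0.38, adjusted p = 0.015).

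Of the cell cycle lists, edgeR called a difference in 3 of 45 replication genes (Chaf1b, Fen1 and Lig1), 1 of 23 genes of the G1 list (Tob1) and 0 of 18 mitosis genes, against 3.26% of all genes. None of those 4 kept the call without Young 1 or without Young PH 2, and without Old 1 the counts were 10, 5 and 3 (12 replication genes without Old PH 1). In the mitosis list 8 genes had an unadjusted p under 0.05, and DESeq2 and limma-voom called 0 there. The median change of that list was 5.60 in young and 5.81 in old mice. Outside these lists, Mastl, the Greatwall kinase that holds cells in mitosis, measured 25.4, 25.1 and 19.9 CPM in Young PH, against 7.29, 7.06 and 7.06 CPM in Young, and 17.3, 18.4 and 17.2 CPM in Old PH, against 0.359, 0.463 and 0.694 CPM in Old. It rose by 1.72 in young against 5.11 in old mice (difference −3.39, SE 0.26, adjusted p = 7.33e-05). In proportion, the young and old levels of Mastl lay further apart before surgery than after PH. Btg3, an antiproliferative gene, rose by 0.80 in young and 3.27 in old mice (difference −2.47, SE 0.33, adjusted p = 0.00467). In old mice it measured 17.8, 20.5 and 14.3 CPM in Old PH, against 1.08, 2.31 and 2.08 CPM in Old. Its increase in young mice was not called without Young PH 1 (adjusted p = 0.0598). The histone genes Hist1h2ac (9.02, 13 and 11.2 CPM in Young PH, against 1.39, 0.855 and 0.706 CPM in Young) and Hist1h2ae (4.89, 7.82 and 7.32 CPM in Young PH, against 0.387, 0.348 and 0.226 CPM in Young) rose in young mice and were not called in old mice, with differences of 3.58 and 5.61 (adjusted p = 0.00332 and 0.00364). Transcripts of replication histones mostly lack the poly-A tail, and the study's methods give poly-A enrichment for all libraries. Long noncoding genes held 8.02 to 9.32% of the read pairs in genes in Young PH and 7.34 to 9.72% in Young. They held 0.256 to 0.299% in Old PH and 0.159 to 0.254% in Old. The part of library preparation in the histone differences was not tested.

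Other genes that differed included clock genes, with a difference called in 5 of 23, against 3.26% of all genes. Npas2 measured 3.61, 5.42 and 9.40 CPM in Old PH, against 0.239, 5.55 and 2.20 CPM in Old. It changed by −4.89 in young and 1.22 in old mice (difference −6.12, SE 1.00, adjusted p = 0.0135), and Arntl by −2.00 and 0.84 (difference −2.84, SE 0.55, adjusted p = 0.0203), where the adjusted p was 0.0572 without Young 1 and 0.0630 without Young PH 2. The old libraries were uneven in these genes, and Dbp measured 6.17, 5.24 and 2.25 CPM in Old PH, against 54.0, 1.98 and 13.1 CPM in Old. In Smo (-) mice Arntl changed by 1.18, Usp2 by −1.22 and Ciart by −1.40 after PH. Slc13a2 changed by −5.87 in young against −2.75 in old mice (difference −3.12, SE 0.47, adjusted p = 0.0103). Crem, a cAMP-responsive factor, changed by −0.44 in young and 0.91 in old mice (difference −1.35, SE 0.15, adjusted p = 0.00237), Hmcn2, a hemicentin gene, by −0.97 and 2.12 (difference −3.10, SE 0.35, adjusted p = 0.00237), and Pkp1, a desmosome gene, by 5.84 and 1.44 (difference 4.41, SE 0.55, adjusted p = 0.00332).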

How the data were processed

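The values deposited by the authors are unnormalised counts, read pairs for each Ensembl gene ID, made from poly-A libraries with Trim Galore, STAR 2.5.0c on mm10, SAMtools, Picard (duplicates removed) and HTSeq. The annotation release and strand setting are not given in the sources used here. HTSeq's rows for pairs outside genes (25.2 to 33.9% in the 6 libraries) and ambiguous pairs (2.89 to 3.77%) were kept out. Genes were named from GENCODE M21, and 0 sample columns were unused. The 12 young and old libraries were fitted together with edgeR 4.0.16 in R 4.3.3 (TMM, filterByExpr with a minimum count of 10 and total of 15, quasi-likelihood test, 8 residual degrees of freedom). The Smo-floxed table was fitted apart (13654 genes, 2 residual degrees of freedom). Replicates were single mice.

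The text names, for each list, anchor genes whatever their result and up to 5 called genes each way with the smallest adjusted p, the 15 largest called changes each way without overlap and with a mean of at least 5 CPM, and 10 genes for the young and old difference, from which those listed were taken. Some genes that the rule gave are not reported here. Comparison, lists and rules were chosen with earlier results of these data known. Alternatives were DESeq2 1.42.0, limma-voom 3.58.1, other scalings and filters, a fit of the 6 young libraries, a replicate block and leaving out each library.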

Additional observations from a re-analysis of the deposited data

Results flagged for a closer look

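Listed here are 20 of the genes described above whose responses to PH differed between young and old mice. Over all genes 474 passed that test (3.26%), so the list is not complete. A difference was called, for example, in 5 of 23 clock genes, 4 of 40 amino acid catabolism genes and 4 of 12 Kupffer cell and macrophage markers. The values here are the difference on the log2 scale, young minus old. It was positive, so that the change after PH was further upward in young mice, for Ogn (5.77), Chaf1b (2.35), Lig1 (1.77), Fen1 (0.95), Hist1h2ae (5.61), Lcn2 (4.90), Pkp1 (4.41), Saa2 (4.22), Hist1h2ac (3.58), Saa1 (3.02), Col1a1 (2.24) and Fkbp5 (2.06). It was negative for Npas2 (−6.12), Tob1 (−1.14), Mastl (−3.39), Slc13a2 (−3.12), Hmcn2 (−3.10), Arntl (−2.84), Btg3 (−2.47) and Crem (−1.35). Each passed an adjusted p under 0.05 in edgeR over all genes tested. Col1a1 and Ogn are genes of matrix-forming cells, and the stellate cell and fibroblast markers, 16 genes, summed to 89.1 to 110 CPM in Young PH and 123 to 198 CPM in Young. Their median change was −0.33 in young mice (1 higher, 2 lower) and −0.88 in old mice (0 higher, 6 lower). The 12 tested Kupffer cell and macrophage markers had medians of 0.08 in young and −2.78 in old mice. The part of other cells in these differences was not tested. Age, colony and library preparation cannot be told apart in any of these differences.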

How the results depend on the processing

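The number of genes called higher in Young PH was 2477 to 3339 under other tools, scalings, filters and fits and 2000 to 2863 when 1 of the 12 libraries was left out, and the number called lower was 2245 to 3084 and 1710 to 2885. Other scalings moved the median change of all genes by less than 0.1. Of list counts of at least 10, those of cytosolic ribosomal proteins and interferon-stimulated genes depended on the fit. Ribosomal proteins that rose numbered 16 with limma-voom, 18 with upper-quartile factors and 31 in a fit of only the 6 young libraries, against 10, and 4 to 23 without single libraries. Interferon-stimulated genes that fell numbered 21 in the fit of 6, against 12, and 6 to 16 without single libraries. Without single libraries the lowest counts were 6 for female-biased genes that rose (highest 11), 7 for periportal genes (highest 13) and 13 for male-biased genes (highest 22) that fell. The count of genes whose response differed between young and old mice was 1105 with DESeq2 and 246 with upper-quartile factors, against 474, and 60 (without Young PH 2) to 825 (without Old 1) without single libraries. The causes were not tested. The uncalled changes of Cyp1a2 (−0.92 to 0.17), Cps1 (−0.24 to 0.18) and Hamp (−0.27 to 0.15) crossed 0 when single libraries were left out. In the 18 list directions where edgeR called 0 genes, 0 to 2 genes had an unadjusted p under 0.05, DESeq2 called 0 to 2 and limma-voom 0 to 1.

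Replicate numbers did not pair the mice: deviations of same-numbered Young PH and Young libraries correlated across genes at 0.065, −0.038 and −0.112. With the replicate number as a block in the fit of 12 libraries, 2477 genes were called higher, 2245 lower and 324 for the response difference. In the block fit of the 6 young libraries 3002 were higher and 2765 lower, with 29 ribosomal proteins higher and 20 interferon-stimulated genes lower. The depth, 31729517 read pairs in the shallowest young library, leaves genes under about 1 CPM, such as Hamp2, Sult1e1 and Orc1 in Young, on few counts.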

Other observations

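Of 29 genes of iron and heme handling 4 rose (13.8%) and 5 fell (17.2%), near the 17.8% and 16.4% of all genes. Alad, the second enzyme of heme synthesis, measured 122, 139.9 and 116 CPM in Young PH, against 79.9, 72.9 and 80.8 CPM in Young (log2 fold change 0.70, SE 0.17, adjusted p = 0.00703). Steap3, an endosomal iron reductase, measured 38.0, 33.5 and 38.9 CPM in Young PH, against 68.7, 61.0 and 78.6 CPM in Young (log2 fold change −0.92, SE 0.12, adjusted p = 5.54e-05). Neither overlapped between groups, and Tfr2, an iron-sensing receptor, fell (−0.62). Of 29 genes of NAD and one-carbon growth metabolism 8 rose (27.6%) and 6 fell (20.7%). The number that rose was 4 without Young PH 1 or without Young PH 2, and 5 without Young 2, Young 3 or Young PH 3. Srm, spermidine synthase, measured 36.7, 32.0 and 29.8 CPM in Young PH, against 20.9, 10.3 and 16.2 CPM in Young (log2 fold change 1.06, SE 0.21, adjusted p = 0.00157). Amd1, which supplies the aminopropyl group of polyamines, measured 34.9, 28.8 and 34.8 CPM in Young PH, against 15.2, 20.0 and 14.8 CPM in Young (log2 fold change 0.98, SE 0.14, adjusted p = 1.39e-04). Aox3, an aldehyde oxidase of mouse liver, measured 197, 261 and 459.9 CPM in Young PH, against 1223, 1042 and 954 CPM in Young (log2 fold change −1.81, SE 0.28, adjusted p = 2.26e-04), and Sirt3, a mitochondrial deacetylase, fell (−0.98).

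Of 24 angiogenic and matrix signals of hepatocytes 4 rose (16.7%) and 5 fell (20.8%), near the 17.8% and 16.4% of all genes. The number that rose was 2 without Young 2, Young 3, Young PH 1 or Young PH 3. Ang, angiogenin, measured 408, 410.2 and 336 CPM in Young PH, against 154, 149 and 124 CPM in Young (log2 fold change 1.43, SE 0.25, adjusted p = 6.45e-04). Adamts1, a secreted protease, measured 14.5, 17.2 and 16.5 CPM in Young PH, against 5.07, 6.94 and 5.71 CPM in Young (log2 fold change 1.44, SE 0.37, adjusted p = 0.00793). Both lay above all Young libraries, while Col18a1, the precursor of endostatin (−1.19), fell. None of these values was part of a test of an explanation.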
